A study of Mus musculus with 29 samples.

Results

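The effect of losing Gadd45b was examined in hematopoietic stem cells (HSCs) of old mice within a single sequencing batch. The members are 8 of the 19 RNA-seq libraries of the series, which holds 29 samples in all. They were chosen by their labels and by a prefix in the library titles that the other libraries lack and that is taken here as the batch: 4 libraries are labelled old WT (OWT1 to OWT4) and 4 are labelled old Gadd45KO (OKO4 to OKO7). A further 3 old knockout libraries, OKO1 to OKO3, lack that prefix and did not enter the comparison. Both groups carry the label old in the treatment field, and no agent is named. The labels call the genotype Gadd45KO, and the study describes the animals as knockouts of Gadd45b that were bred and aged in its own facility. Its sample table lists the WT animals as C57BL/6J and names only the knockout for the others, so the genotype and the strain background cannot be told apart. Nothing in the labels says that the libraries come from separate animals, and the p-values then measure only the spread between these samples.

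Gadd45b belongs to a family of small stress-induced proteins that bind the kinase MTK1 (Map3k4), which acts upstream of the p38 and JNK kinases. The family has also been tied to active DNA demethylation, in which the glycosylase TDG excises oxidized methylcytosine and base excision repair fills the gap. HSCs divide rarely and give rise to all blood lineages, and in old mice they are known for more platelet-biased and myeloid-biased expression and for weaker lymphoid output.

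The libraries held between 50951554 and 77970627 reads counted on genes in OWT and between 54339559 and 73063212 in OKO. Defining HSC genes were expressed in both groups. Levels below are CPM, the counts scaled to library size and normalized by the TMM method. The mean CPM of Procr was 169 in OWT and 131 in OKO, and that of Slamf1, which encodes the CD150 used in the sort, was 87.0 and 73.7. The gate excludes CD34 and Flk2, and Cd34 had a mean of 144 CPM in OWT and 153 CPM in OKO, so its mRNA was not absent. The libraries also carried immunoglobulin reads, from 0.54 to 15% of all counts in OWT and from 2.17 to 18.5% in OKO. All 8 libraries are labelled female, yet in OWT2 and OKO5 Xist was at 2.44 and 1.38 CPM and Eif2s3y at 45.5 and 42.0 CPM, while the other 6 libraries had no Eif2s3y read. The study's sample table lists both as male, and by the ages it gives OWT1, OWT2, OKO4 and OKO5 were the older pair of each group. The older pairs also come first in the numbering of the library titles, so age and that order cannot be told apart. Correlations between libraries of the same age pair ran from 0.914 to 0.964 across genotypes, and those between different age pairs from 0.849 to 0.927.

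The targeted gene was read in all 8 libraries. Gadd45b was at 8.96, 9.07, 14.5 and 10.2 CPM in OWT1 to OWT4 and at 2.77, 4.60, 4.14 and 6.40 CPM in OKO4 to OKO7. Each OKO library lay below each OWT library, and none reached 0. The log2 fold change was -1.25 ± 0.30 (SE), with an adjusted p of 0.739 by the edgeR quasi-likelihood test over all genes, so the difference was not called there. An exact two-sided permutation test of these values alone gave p = 0.0286, the smallest value that 4 against 4 libraries allow, or 0.0858 adjusted over the 3 Gadd45 genes. DESeq2 placed the same difference at an adjusted p of 0.0202. Which exons the deletion removes cannot be read from gene counts.

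Its paralogs gave no called difference. Gadd45a was at 13.9, 16.0, 21 and 15.5 CPM in OWT and at 12.1, 12.8, 16.9 and 17.8 CPM in OKO, with a log2 fold change of -0.16 ± 0.22 and an exact permutation p of 0.486. Gadd45g was at 44.3, 44.8, 19.8 and 21 CPM in OWT and at 46.7, 83.0, 45.4 and 28.3 CPM in OKO, with a log2 fold change of 0.65 ± 0.37 and an exact permutation p of 0.143. The groups overlapped for both genes.

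Of 26213 genes tested, 8 were called (adjusted p below 0.05 with more than a 1.5-fold change), which is 0.0305%. Of these, 5 rose in OKO and 3 fell. Before adjustment, 235 genes (0.897%) were higher and 331 (1.26%) lower at p under 0.05, and 46 (0.175%) had p under 0.001. All OKO libraries lay above all OWT libraries for 174 genes (0.664%) and below them for 323 (1.23%). The plot of p against fold change shows how far the called genes lie from the rest.

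**Figure D1:**
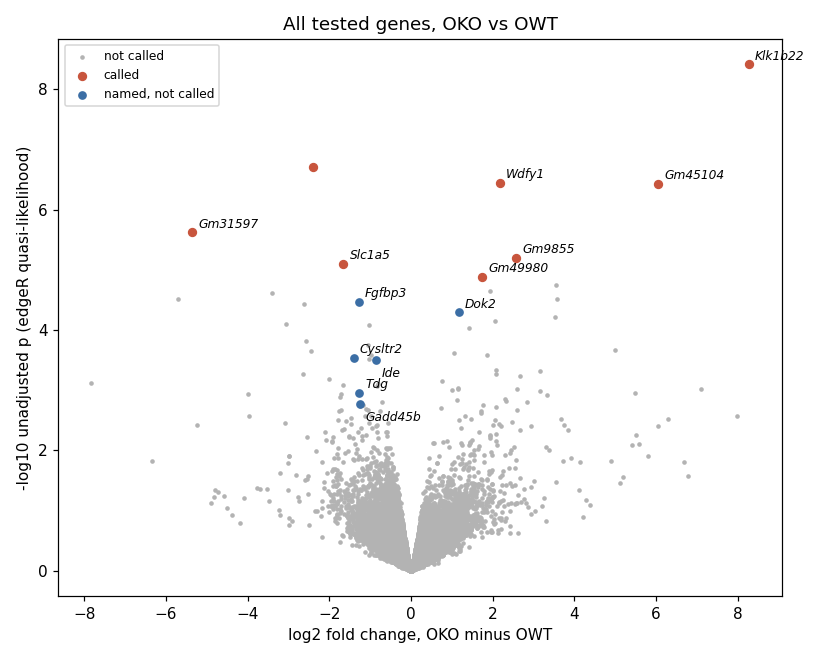
Each point is 1 of the 26213 tested genes, with its log2 fold change (OKO minus OWT) on the x axis and the -log10 of its unadjusted p (edgeR quasi-likelihood test) on the y axis. The 8 called genes are red and some named genes that were not called are blue, and Klk1b22, at a log2 fold change of 8.28, lies farthest from 0 among them.

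Klk1b22 rose most among the called genes. It encodes a secreted serine protease of the tissue kallikrein family, and it lies at chr7:44112673-44116922 of mm10, on the plus strand. It had 2 or 3 reads in each OWT library, 0.0251, 0.0397, 0.0391 and 0.0335 CPM, and stood at 15.7, 13.4, 9.57 and 5.70 CPM in OKO4 to OKO7. Over the groups 9 reads in OWT stood against 3042 in OKO, a ratio of 339 with an exact 95% interval from 178 to 742 for counting error only. The log2 fold change was 8.28 ± 0.48 and the adjusted p 0.000101. Within the older pairs and within the younger pairs its log2 fold change was 8.75 and 7.65. No other gene of the Klk1 family had over 76 reads in a group: Klk1b24, 87.9% identical to it over the transcript, had 19 reads in OWT and 12 in OKO, Klk1 itself had 21 and 11, and Klk1b9 had 3 and 23. The 2 relatives that were tested, Klk1b26 and Klk1b7-ps, had unadjusted p-values of 0.426 and 0.521.

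The promoter of Klk1b22 is shown because the gene went from near absence to expression, and that of Gadd45b because the study targeted it and asks about DNA methylation. Both come from RefSeq on GRCm38.p6 and run from 250 bases before to 50 bases after the start, 5′ to 3′ on the plus strand, with CG dinucleotides in capitals. Among the 10 genes looked for (the called genes, Gadd45b and Tdg), 3 had an entry.
Gadd45b, chr10:80929841-80930140: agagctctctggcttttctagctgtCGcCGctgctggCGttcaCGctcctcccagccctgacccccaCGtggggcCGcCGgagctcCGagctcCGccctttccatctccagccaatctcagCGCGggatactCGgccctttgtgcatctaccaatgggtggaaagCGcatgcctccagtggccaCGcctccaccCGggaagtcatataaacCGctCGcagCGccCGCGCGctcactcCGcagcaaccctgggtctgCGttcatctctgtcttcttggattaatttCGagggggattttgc
Klk1b22, chr7:44112423-44112722: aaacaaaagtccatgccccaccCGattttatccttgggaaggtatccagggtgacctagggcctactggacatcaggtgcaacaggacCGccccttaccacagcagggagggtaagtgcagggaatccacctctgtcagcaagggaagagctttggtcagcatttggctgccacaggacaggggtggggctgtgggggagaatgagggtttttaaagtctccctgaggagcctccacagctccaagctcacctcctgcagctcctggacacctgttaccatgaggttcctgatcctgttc
The Gadd45b window holds 24 CG dinucleotides, and 20% of the 32851 promoters of that length hold as many or more. Klk1b22 holds 2, and 23.3% of promoters hold as few or fewer. Methylation of these sites was not analysed here.

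Wdfy1, a phosphoinositide-binding adaptor linked to Toll-like receptor signalling, rose at chr1:79702262-79776143. It was at 19.3, 18.6, 14 and 13.1 CPM in OWT and at 78.7, 82.9, 75.7 and 57.0 CPM in OKO. The highest OWT library was below the lowest OKO library. The log2 fold change was 2.18 ± 0.20 and the adjusted p 0.00246. Its relative Wdfy2 had a log2 fold change of -0.14 and an unadjusted p of 0.591. Among 20 genes of Toll-like receptor signalling, Wdfy1 was the 1 at p under 0.05, and the median log2 fold change was 0.08.

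The remaining risers are gene models without a known product. Gm45104, at chr7:18396516-18400865, was at 0.125, 0.106, 0.352 and 0.435 CPM in OWT and at 22.2, 20.3, 15.1 and 8.87 CPM in OKO, with a log2 fold change of 6.05 ± 0.55 and an adjusted p of 0.00246. Gm49980 was at 2.77, 2.95, 3.25 and 2.53 CPM in OWT and at 9.10, 11, 8.17 and 10.4 CPM in OKO, with a log2 fold change of 1.75 ± 0.23 and an adjusted p of 0.0432. Both were apart in all libraries, but the call of Gm49980 was lost in each of the 8 fits that left out 1 library, at adjusted p-values from 0.0867 to 0.213. Parts of Gm45104 match other transcripts, such as 1527 bases at 89.5% identity to Gm42923, so its reads may come from more than 1 place.

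Gm9855 is a processed copy of Tdg on the same chromosome. It lies at chr10:42054113-42055306 on the minus strand, 38.9 Mb from Gadd45b, while Tdg lies 1.70 Mb from Gadd45b at chr10:82629828-82650799. Its 1194 bases differ from the Tdg transcript at 9 positions, an identity of 99.2%. The aligned bases make up 34.1% of the longest Tdg transcript. The stretch with most of these differences is shown so that both sequences can be compared. It holds 120 bases of Gm9855 in its only exon and the matching bases in exons 9 and 10 of Tdg. Both come from GENCODE M21 transcripts, 5′ to 3′, with the 5 differing bases in capitals.
Gm9855, chr10:42054206-42054325, minus strand: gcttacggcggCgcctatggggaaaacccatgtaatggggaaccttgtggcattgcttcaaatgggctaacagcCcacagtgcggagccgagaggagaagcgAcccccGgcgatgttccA
Tdg, chr10:82648009-82648627, plus strand, intron left out: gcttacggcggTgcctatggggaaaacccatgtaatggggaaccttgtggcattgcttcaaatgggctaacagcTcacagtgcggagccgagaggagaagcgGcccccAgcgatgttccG
Gm9855 was at 1.29, 2.41, 1.92 and 1.66 CPM in OWT and at 10.1, 8.52, 8.81 and 15.9 CPM in OKO. Each OKO library exceeded each OWT library, with a log2 fold change of 2.58 ± 0.31 and an adjusted p of 0.0278. The call was lost in 4 of the 8 fits that left out 1 library, at adjusted p-values from 0.0757 to 0.169. Tdg was at 31.8, 46.1, 37.6 and 29.3 CPM in OWT and at 12, 10.2, 13.5 and 24.7 CPM in OKO. Here each OKO library was the lower one, with a log2 fold change of -1.26 ± 0.29 and an adjusted p of 0.590, which became 0.0246 with DESeq2. The counts of the pair moved in opposite directions: 482 reads of Gm9855 in OWT and 2763 in OKO stood beside 9688 and 3765 reads of Tdg. How reads were split between both genes was not tested. Tdg-ps, another copy, was at an unadjusted p of 0.551.

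Slc1a5, a sodium-dependent transporter of glutamine and other neutral amino acids, fell at chr7:16781340-16798274. It was at 162, 167, 149 and 107 CPM in OWT and at 44.6, 59.1, 35.1 and 47.1 CPM in OKO. The groups did not overlap, and the log2 fold change was -1.66 ± 0.21 at an adjusted p of 0.0298. The call held in 2 of the 8 fits that left out 1 library, and in the other 6 the adjusted p lay between 0.0867 and 0.183. Its relative Slc1a4, another neutral amino acid transporter, was higher in OKO with a log2 fold change of 0.91 and an unadjusted p of 0.0274, which did not pass the adjustment.

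Gm31597 is annotated as a transcript antisense to Sult2b1, a sulfotransferase of cholesterol and steroids, at chr7:45742049-45750257. It was at 2.02, 2.33, 2.91 and 2.31 CPM in OWT and at 0.0247, 0.0146, 0.123 and 0.0742 CPM in OKO. Over the groups 624 reads stood against 14, and the level in OWT was 44.4 times that in OKO, with an exact 95% interval from 26.3 to 81.8 for counting error only. The log2 fold change was -5.36 ± 0.59 and the adjusted p 0.0125. Sult2b1 itself, named after its values were seen, was at 2.79 to 4.05 CPM in OWT and at 0.205 to 0.876 CPM in OKO, with a log2 fold change of -3.06 and an adjusted p of 0.110. Gm31597 lies within the bounds of Sult2b1, and both share 78 exon bases on opposite strands. The library kit does not mark strand, so reads of both genes cannot be told apart by strand. Whether both falls are separate was not tested.

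**Figure D2:**
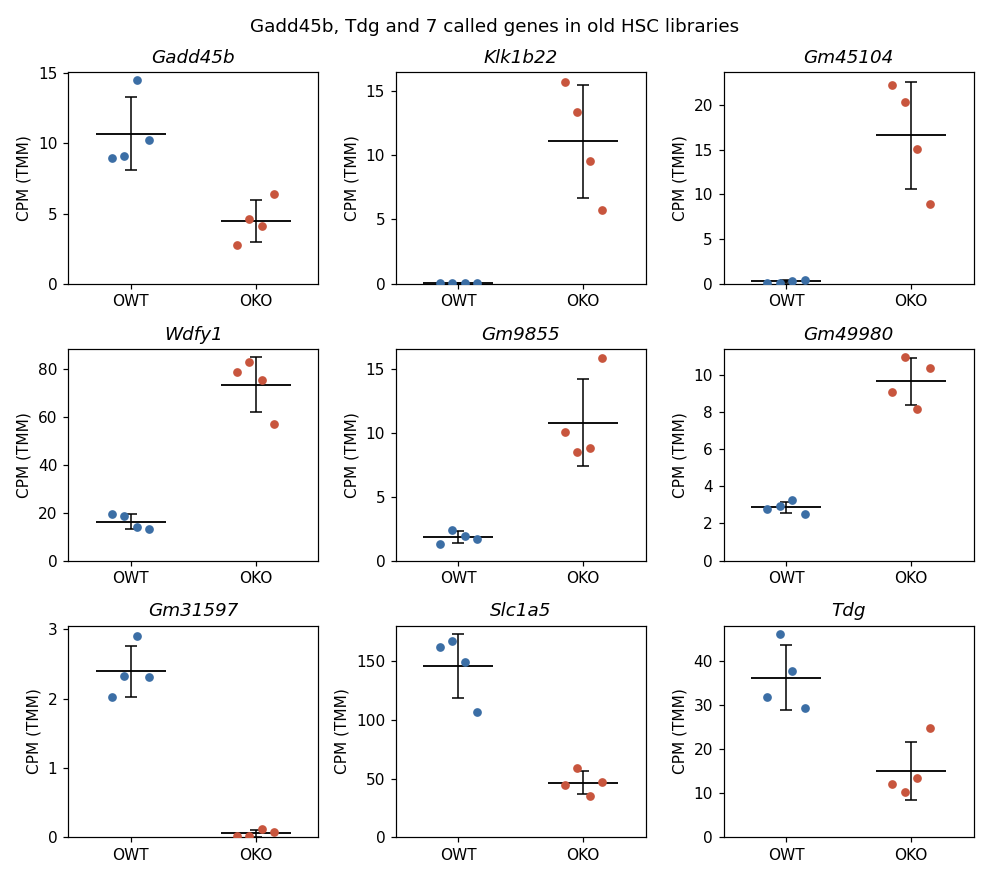
Each panel gives 1 gene, with CPM normalized by TMM on the y axis, 1 point per library, a line at the mean and bars of 1 SD (n = 4 per group). For Gadd45b, Tdg and the 7 called genes shown the OWT and OKO points do not overlap.

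Dok2, 4930480K23Rik, Gm42031, Stap1, Pop4, Zfp526 and Fgfbp3 were not called by the edgeR test. They were picked for a small unadjusted p, groups without overlap and a mean level of 5 CPM or more. Their lack of overlap was thus a condition of the choice, and some genes of lower level with smaller p were passed over. In a fit with the age pair as a covariate, chosen after seeing the data, 25 genes were called, among them Dok2, 4930480K23Rik, Gm42031, Stap1, Pop4, Zfp526 and Fgfbp3 at adjusted p-values from 0.0158 to 0.042, and Cysltr2 at 0.00305. Dok2, an adaptor that restrains receptor tyrosine kinase signalling in blood cells, was at 82.8, 65.2, 51.6 and 59.2 CPM in OWT and at 159, 122, 157 and 147 CPM in OKO, with a log2 fold change of 1.18 ± 0.18 and an adjusted p of 0.0842. Its relatives Dok1 and Dok3 had log2 fold changes of 0.30 and -0.02. The non-coding 4930480K23Rik and Gm42031 were also higher, with log2 fold changes of 1.93 and 3.55 and adjusted p-values of 0.0571 and 0.0516.

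Among those lower in OKO, Stap1, an adaptor of hematopoietic tyrosine kinases, was at 50.1, 52.1, 59.2 and 60.3 CPM in OWT and at 31.9, 22.1, 29.8 and 24.8 CPM in OKO. Its log2 fold change was -1.03 and its adjusted p 0.110. Pop4, a subunit of RNase P and RNase MRP, and the zinc finger gene Zfp526 had log2 fold changes of -1.06 and -2.57. Cysltr2, a receptor of cysteinyl leukotrienes, was at 71.4, 57.1, 36.8 and 42.6 CPM in OWT and at 25.6, 23.2, 15.3 and 14.3 CPM in OKO. All OKO libraries lay below all OWT libraries, at a log2 fold change of -1.41 ± 0.27 and an adjusted p of 0.260. Within the older pairs and within the younger pairs the log2 fold change of Cysltr2 was -1.40 each.

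Fgfbp3, a secreted carrier of fibroblast growth factors, was at 18.8, 19.6, 14.7 and 17.3 CPM in OWT and at 7.13, 7.32, 7.06 and 7.57 CPM in OKO, with a log2 fold change of -1.28 ± 0.19 and an adjusted p of 0.0639. Ide, the insulin-degrading enzyme, lies near it on chromosome 19 and was at 292, 264, 295 and 267 CPM in OWT and at 147, 124, 158 and 186 CPM in OKO, with a log2 fold change of -0.86 ± 0.16 and an adjusted p of 0.267. Neither gene overlapped between the groups. Ide, but not Fgfbp3, belongs to a list of 4 genes drawn up here for differences between C57BL/6 substrains. Of the other members, Wdfy1 rose as given above, Entpd4 was lower with an unadjusted p of 0.0392, and Nnt was at 54.8 to 67.1 CPM in OWT and at 54.7 to 64.2 CPM in OKO. The part of strain in these values was not tested.

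The positions of these genes were set beside those of all tested genes, of which 25872 of 26213 had 1 position in GENCODE M21. Chromosome 7 held 12 of the 45 genes at p under 0.001 that had a position, 0.573% of its 2094 tested genes beside 0.174% over all chromosomes. These 12, 3 higher and 9 lower, lay between 16781340 and 45784669 on that chromosome, a span of 29.0 Mb. Besides Klk1b22, Gm45104, Slc1a5, Gm31597, Sult2b1, Zfp526 and Pop4, they included Gmfg, a regulator of actin branching, at 61.5 to 106 CPM in OWT and 159 to 277 CPM in OKO. Within the span 64 of 611 tested genes (10.5%) had p under 0.05, and on the rest of the chromosome 35 of 1483 (2.36%). Those 64 were 23 higher and 41 lower, and the median log2 fold change of all 611 was 0.03. The edges of the span are those genes' own, so its shares are a description without a test. These shares are of OKO4 to OKO7 against OWT, and several genes of the span stood otherwise in OKO1 to OKO3, as given below. Chromosome 14 followed with 5 of 901 genes (0.555%), among them 4930480K23Rik, Dok2 and Cysltr2.

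Around Gadd45b itself, on chromosome 10, 12 of 269 genes within 5 Mb (4.46%) and 23 of 538 within 20 Mb (4.28%) had p under 0.05. On the rest of that chromosome the share was 13 of 680 (1.91%), and over all genes 2.16%. By the edgeR test no gene within 20 Mb was called or had p under 0.001. With DESeq2, as given above, Gadd45b and its neighbour Tdg had an adjusted p below 0.05. Elane, a granule gene given below, lies 1.04 Mb from Gadd45b and had an unadjusted p of 0.00214 by the edgeR test. In the plot of fold change against distance, the genes at p under 0.001 on chromosome 7 crowd within 29.0 Mb, and those on chromosome 10 lie far from Gadd45b.

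**Figure D3:**
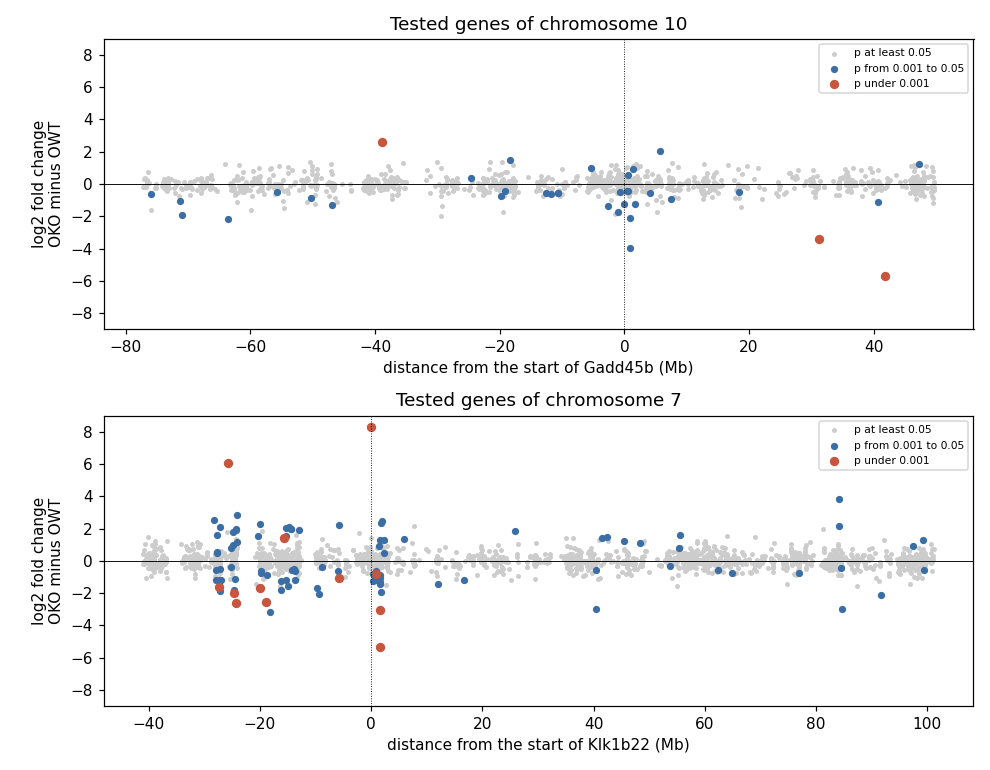
Each point is a tested gene of chromosome 10 (top, distance in Mb from the start of Gadd45b) or chromosome 7 (bottom, distance in Mb from the start of Klk1b22), with its log2 fold change (OKO minus OWT) on the y axis in red at an unadjusted p under 0.001, in blue from there to 0.05 and in grey above. On chromosome 7 the 12 red points fall within 29.0 Mb, and on chromosome 10 none of the 3 falls within 20 Mb of Gadd45b.

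Each list of the pathways that Gadd45b acts in held 1 gene at p under 0.05. Over all tested genes 0.897% were higher and 1.26% lower at that threshold. Of 14 genes of the Gadd45 family and the stress kinases, 8 were higher and 6 lower, with a median log2 fold change of 0.03, and 1, Gadd45b itself, was at p under 0.05. Map3k4, the kinase MTK1, had a log2 fold change of -0.04 and a level of 51.9 to 70.3 CPM in OWT and of 57.0 to 62.9 CPM in OKO. The p38 gene Mapk14 and the JNK gene Mapk9 had log2 fold changes of -0.09 and 0.01. Of 28 genes of DNA methylation, demethylation and base excision repair, 15 were higher and 13 lower, with a median of 0.02, and Tdg alone was at p under 0.05. Dnmt1, the maintenance methyltransferase, had a log2 fold change of 0.02, Dnmt3a and Dnmt3b of -0.19 and -0.12, and the dioxygenases Tet1, Tet2 and Tet3 of -0.24, -0.05 and 0.21. Over all tested genes 13399 were higher and 12814 lower, with a median of 0.007.

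Lists of HSC function held no called gene, and over all tested genes 0.0305% were called. Of 34 HSC identity genes 25 were lower and 9 higher, with a median log2 fold change of -0.19 and 0 at p under 0.05. Their summed level was 6000 to 9200 CPM in OWT and 4760 to 8170 CPM in OKO, with the lowest value in OKO7. Hlf, a transcription factor of HSC self-renewal, was at 436, 384, 307 and 314 CPM in OWT and at 338, 290, 260 and 127 CPM in OKO, with an unadjusted p of 0.0939, and the groups overlapped. Of 40 genes known to change with HSC aging 18 were higher and 22 lower, with a median of -0.08, and Fyb, an adaptor of integrin signalling, was the 1 at p under 0.05. Selp and Vwf, platelet genes that mark aged HSCs, had log2 fold changes of 0.24 and -0.27.

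Cell cycle genes were mostly a little higher. Of 45 members 39 were higher and 6 lower by the sign of the fold change, with a median of 0.21, but 0 were at p under 0.05. The summed level of the list was 2510 to 4280 CPM in OWT and 2920 to 6080 CPM in OKO, with the highest value in OKO7. Mcm2, a subunit of the replicative helicase, was at 203, 258, 256 and 173 CPM in OWT and at 247, 226, 240 and 388 CPM in OKO. The groups overlapped, and OKO7 alone exceeded each OWT library. Among 14 tested regulators of G0 and G1, Cdkn1c, the p57 inhibitor of quiescent HSCs, had a log2 fold change of -0.60 and an unadjusted p of 0.0422, and Cdkn2b was the other way at 1.99 and 0.0368. The 25 p53 target genes had a median of 0.02 with 0 at p under 0.05, and 30 immediate-early genes a median of 0.06 with 2 higher (Klf4 and Fosb) and 1 lower (Dusp6) at p under 0.05.

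Genes of granulocytes and monocytes gave the lowest median of the lists. Of 22 members 18 were lower and 4 higher, with a median log2 fold change of -1.23, and 7 were lower at p under 0.05, none of them called. Mpo, the peroxidase of primary granules, was at 57.9, 38.1, 116 and 110 CPM in OWT and at 22.9, 40.1, 16.7 and 17.6 CPM in OKO. OWT2 and OKO5 overlapped, and the log2 fold change was -1.72 ± 0.39 at an adjusted p of 0.590. Elane, neutrophil elastase, was at 15.2, 14.3, 34.5 and 40.8 CPM in OWT and at 6.67, 13.9, 6.10 and 5.07 CPM in OKO, a log2 fold change of -1.72 ± 0.43 at an adjusted p of 0.811. The groups were apart, though OWT2 and OKO5, both listed as male, differed by little. S100a8 and S100a9 had log2 fold changes of -1.73 and -1.80, while Csf3r and Csf1r, receptors of granulocyte and macrophage colony-stimulating factors, had 0.45 and 0.42. The summed level of the list was 1220 to 1600 CPM in OWT and 538 to 1450 CPM in OKO. The sort keeps lineage-negative cells, and its lineage stain includes Mac-1 and Gr-1, which mark mature monocytes and granulocytes. In a bulk sample fewer cells of a type and less RNA per cell cannot be told apart, and the part of other cells in these values was not tested.

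Interferon-stimulated genes were lower for 27 of 35, with a median log2 fold change of -0.28, and Ifit1, Xaf1 and Rtp4 were lower at p under 0.05. Xaf1 was the 1 without overlap, at 34.9 to 39.9 CPM in OWT and 21.2 to 32.4 CPM in OKO. Over all tested genes 1.26% were lower at p under 0.05, and 1.23% were lower without overlap. Of 14 antigen presentation genes 12 were lower with a median of -0.14, and H2-Aa, a class II chain, had a log2 fold change of -0.60 and an unadjusted p of 0.0440. Eicosanoid genes were lower for 18 of 22, with a median of -0.16. Besides Cysltr2, the receptors Ltb4r1 and Ptgir of leukotriene B4 and prostacyclin were lower at p under 0.05, with means of 0.802 and 0.202 CPM in OKO. Megakaryocyte and platelet genes were lower for 17 of 20, with a median of -0.24, and 1, Clec1b, was at p under 0.05. Their summed level was 1910 to 4090 CPM in OWT and 1580 to 3820 CPM in OKO. The summed levels of the interferon, antigen presentation and eicosanoid lists overlapped between the groups as well. None of these lists held a called gene, beside 0.0305% over all tested genes, a share at which lists this short would mostly hold none.

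Marker lists of other lineages held no gene at p under 0.05, where 0.897% of all tested genes were higher and 1.26% lower. Of 19 B cell genes 13 were lower and 6 higher with 0 at p under 0.05. Jchain, a joining protein of secreted antibodies, was at 1120, 152, 1530 and 1990 CPM in OWT and at 705, 2410, 2200 and 3350 CPM in OKO, and the groups overlapped. Pax5, which defines B cells, was at means of 0.770 and 0.643 CPM. Of 16 tested T and NK cell genes 14 were higher with 0 at p under 0.05, and their summed level was 152 to 233 CPM in OWT and 120 to 277 CPM in OKO. The 16 erythroid genes had a median of 0.22, a summed level of 1640 to 3060 CPM in OWT and 939 to 4980 CPM in OKO, and 0 at p under 0.05. The 14 tested retinoid genes had a median of -0.14 and the 13 mitochondrial genes of -0.17, both with 0 at p under 0.05.

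**Figure D4:**
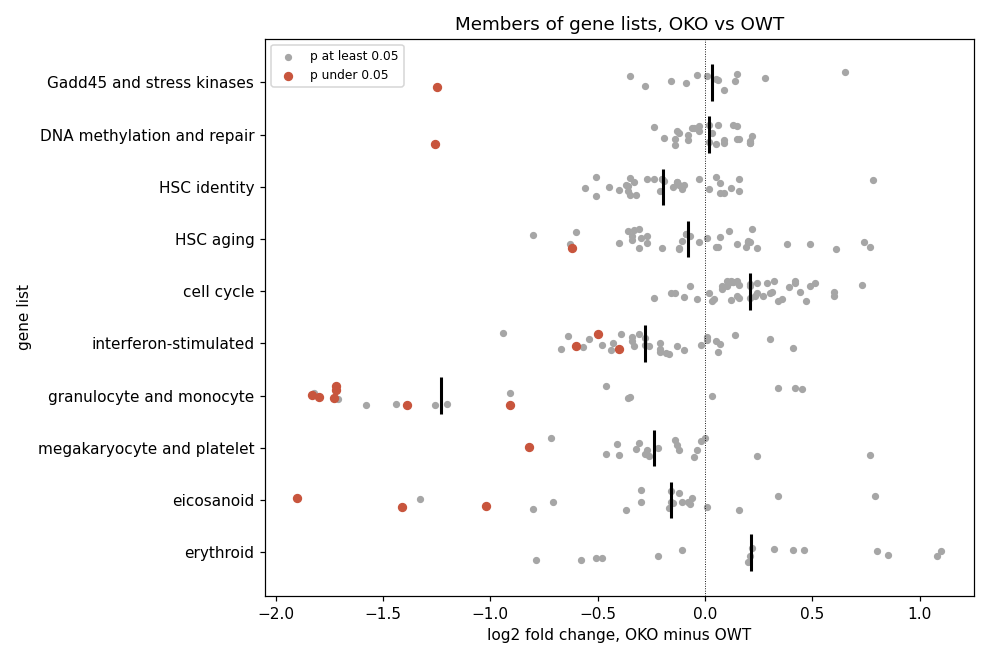
Each point is a member of a gene list, with its log2 fold change (OKO minus OWT) on the x axis, the lists on the y axis and a bar at the median. Red points have an unadjusted p under 0.05, and 7 of them stand in the granulocyte and monocyte list, whose median of -1.23 lies farthest from 0.

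The same contrast in young HSCs, YKO vs YWT, was measured in the other batch on 4 against 4 libraries that share no sample with this one. There 33 of 26083 genes were called (0.127%), and 2743 had p under 0.05 (10.5%). All 8 genes called in old HSCs were among the 33 and changed the same way, which is 100% of the first list and 24.2% of the second. For Klk1b22 the young log2 fold change was 8.63, for Wdfy1 2.18, for Gm9855 3.24 and for Slc1a5 -1.86. Of the 45 genes at p under 0.001 in old HSCs that were tested in both, 43 had the same sign in young HSCs (95.6%), beside 14893 of 24632 over all genes tested in both (60.5%).

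The difference between the old and the young effect had its smallest p at Alas2, the first enzyme of heme synthesis in erythroid cells. Its log2 fold change was -0.79 in old and 2.20 in young HSCs, and the difference of -3.00 ± 0.53 had an unadjusted p of 1.09e-05 and an adjusted p of 0.392. Hba-a1, an alpha globin gene, stood at -0.48 in old and 2.08 in young HSCs, with an unadjusted p of 0.00127 for the difference. Fgfbp3 had a young log2 fold change of 0.01, and the difference of the effects had an unadjusted p of 0.000356 that did not pass the adjustment. Ide had a young log2 fold change of -0.06, with an unadjusted p of 0.00747 for the difference. With all 19 libraries normalized together, Ide was at 284 to 323 CPM in OWT and at 138 to 199 CPM in OKO4 to OKO7. It was at 157 to 189 CPM in YWT and at 114 to 196 CPM in YKO. Fgfbp3 was at 15.8 to 21.7, 7.55 to 8.11, 7.23 to 13.3 and 8.13 to 11.2 CPM in the same order. For both genes OWT lay above each of these other groups, and OKO4 to OKO7 overlapped or neared the young levels. In OKO1 to OKO3, however, Fgfbp3 was at 11.8 to 18.6 CPM and overlapped OWT. Ide was at 142 to 238 CPM in OKO1 to OKO3, below OWT. Gadd45b had a young log2 fold change of -0.14, with an unadjusted p of 0.0361 for the difference. Over 36032 genes in a fit of all 19 libraries the edgeR test called 0 differences between the old and the young effect, with 839 at an unadjusted p under 0.05, and DESeq2 called 5. Age and batch cannot be told apart in this difference.

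The old knockout libraries of the other batch did not always follow those compared here. On the scale of a normalization over all 19 libraries, Slc1a5 was at 114 to 185 CPM in OWT, at 37.5 to 65.4 CPM in OKO4 to OKO7 and at 93.9 to 159 CPM in OKO1 to OKO3. Gm31597 was at 2.23 to 3.12, 0.0162 to 0.131 and 1.56 to 1.90 CPM in the same order. For both genes OKO1 to OKO3 lay outside the range of OKO4 to OKO7, and for Slc1a5 they overlapped OWT. Other genes of the chromosome 7 span also differed. Gmfg was at 35.1 to 50.4 CPM in OKO1 to OKO3, below the 65.8 to 117 CPM of OWT, while OKO4 to OKO7 lay above OWT. Sult2b1, Zfp114 and Zfp526 overlapped OWT in OKO1 to OKO3. Pop4 went the other way, at 16.2 to 24.1 CPM there, below the 32.9 to 40.4 CPM of OWT. Of the uncalled genes outside the span, Dok2 overlapped OWT, at 68 to 113 CPM in OKO1 to OKO3 beside 55.3 to 91.6 CPM. Fgfbp3 overlapped OWT as well, while 4930480K23Rik, Gm42031, Stap1 and Cysltr2 lay apart from OWT in the direction of OKO4 to OKO7.

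Klk1b22 was at 6.10 to 16.9 CPM in OKO4 to OKO7 and at 0.0721 to 0.706 CPM in OKO1 to OKO3 on that scale. Wdfy1, in contrast, was at 44.5 to 53.9 CPM in OKO1 to OKO3, well above the 14 to 21.3 CPM of OWT, and Gadd45b was at 3.05 to 4.87 CPM there, below all OWT libraries. Of the 8 called genes, 3 overlapped OWT in OKO1 to OKO3 (Gm45104, Gm49980 and Slc1a5), 4 lay between OWT and OKO4 to OKO7 (Wdfy1, Klk1b22 and Gm31597 among them), and Gm9855 overlapped OKO4 to OKO7. With all 7 OKO libraries against OWT, Wdfy1 alone was called, and the adjusted p of Klk1b22 became 0.395. Batch and these animals cannot be told apart.

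**Figure D5:**
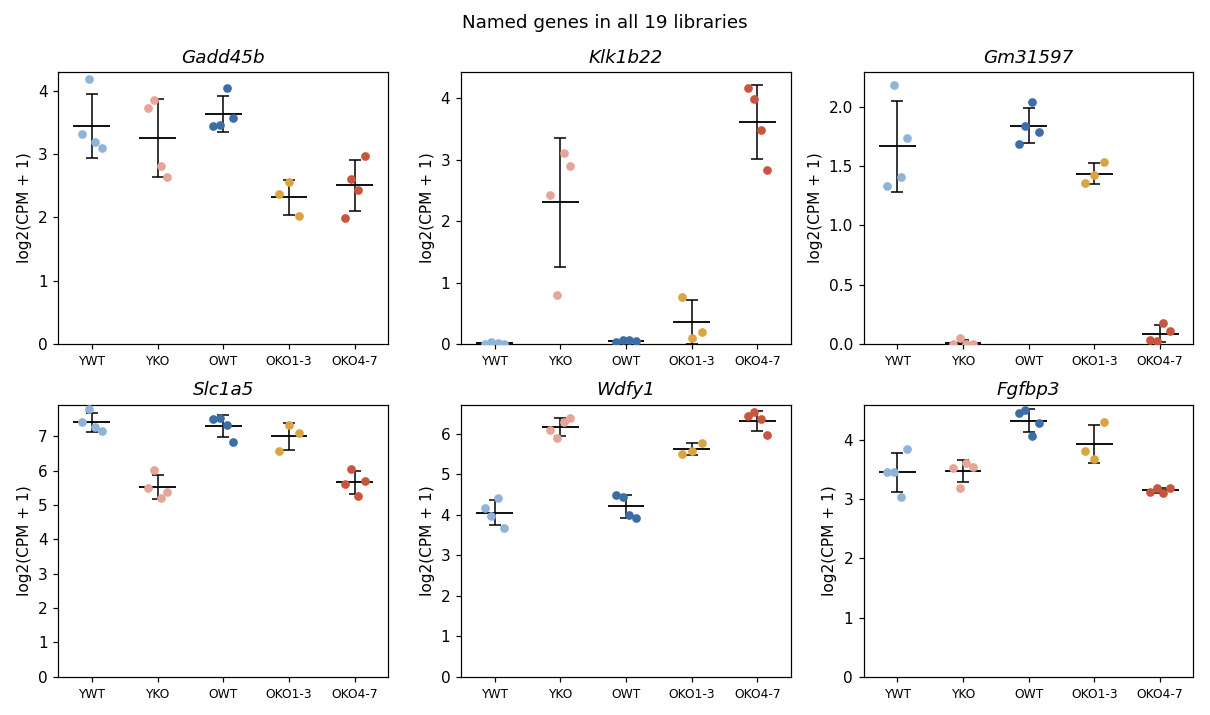
Each panel gives 1 gene in all 19 libraries, with log2(CPM + 1) on the y axis (normalization over the 19 libraries), 1 point per library, a line at the group mean and bars of 1 SD (n = 4, and n = 3 for OKO1 to OKO3). Gm31597 stands at 1.56 to 1.90 CPM in OKO1 to OKO3 and at 0.0162 to 0.131 CPM in OKO4 to OKO7, while Gadd45b is below all OWT libraries in both.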

How the data were processed

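RNA was measured in old HSCs of WT mice (n = 4 libraries) and Gadd45b knockout mice (n = 4 libraries). The SMART-Seq v4 kit was used, a full-length kit that does not mark strand. After trimming (Trim Galore 0.4.3), the authors ran STAR on mm10, indexed with GENCODE M22 genes, and deposited raw counts per gene symbol from featureCounts. Whether mates were counted singly and strand was used is not given in the sources used here. Replicates were compared by a chi-square of their counts, and no pair differed by as little as sampling noise.

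Counts were filtered with filterByExpr, normalized by TMM and tested with the quasi-likelihood test of edgeR 4.0.16 (R 4.3.3) on the 8 libraries alone, with Benjamini-Hochberg adjustment. A gene was called where the adjusted p was below 0.05 with more than a 1.5-fold change. The study names DESeq2 with the same thresholds, and DESeq2 1.42.0 was an alternative. CPM are TMM-normalized, means carry SDs and fold changes SEs. Scripts were tested on simulated data.

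The members, gene lists and rules were chosen with earlier results of these data known. Named genes are Gadd45a, Gadd45b, Gadd45g, Tdg, Gm9855, Cysltr2 and Wdfy1, the called genes, then the uncalled genes with the smallest p, a mean CPM of at least 5 and no overlap, up to 8 per direction, and up to 3 members per list. A called gene and its relatives are not reported here. Other genes were named after their values were seen. Positions and transcripts are from GENCODE M21 (mm10), promoters from RefSeq. Alternatives were other normalizations, filters, covariates and library sets.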

Additional observations from a re-analysis of the deposited data

Results flagged for a closer look

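Among 60 groups of 4 libraries, 3 held a library whose gap to its neighbour exceeded Dixon's 95% critical value, and chance gives about 3. In OWT3 the CPM of 4930480K23Rik was 3.01, with the nearest OWT library at 5.90. Pop4 was at 37.9 CPM in OWT4, with the nearest at 30.8 CPM. Nkpd1, a gene of the chromosome 7 span, was at 4.87 CPM in OWT1, with the nearest at 3.71 CPM. None of these 3 libraries crossed into the OKO range of the gene. For 4930480K23Rik and Pop4 this was fixed by the choice of genes without overlap, and Nkpd1 was named after its values were seen. The cause was not tested.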

How the results depend on the processing

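The count of called genes in OKO vs OWT was 8. It was 81 with DESeq2, 28 with no filter, 24 with all 19 libraries in the fit, 13 with robust estimation, 22 with age as a covariate, 32 with 1 surrogate variable, 4 without the libraries listed as male and 1 with all 7 OKO libraries. Alternatives chosen after seeing the data gave 25 with the age pair as a covariate and 149 with DESeq2 and the age pair. Within the younger pairs and within the older pairs, added likewise, 9 and 11 genes were called. Leaving out 1 library in turn gave 4 to 9 calls, with 4 without OKO4 and 5 without OWT1. Klk1b22, Gm45104 and Wdfy1 were called in each of these 8 fits, and Gm31597 lost its call without OKO4 at an adjusted p of 0.0537. Gm9855 lost its call in 4 of the 8, those without OWT1, OWT3, OWT4 or OKO4, at adjusted p-values from 0.0757 to 0.169. Among 772 values of single genes under alternatives, 615 kept their side of the threshold, 116 passed it and 40 lost it, and 1 changed sign: the log2 fold change of Gadd45a was 0.06 with age as a covariate. The cause of these shifts was not tested.

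Pairing by replicate number could not be fitted for OKO vs OWT, since the groups share only number 4, and the fits with the age pair as a block are those given above. In YKO vs YWT the count was 33, and 48 with the replicate block and 666 with DESeq2. For the difference between old and young effects DESeq2 called 5 where edgeR called 0.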
